A study of Mus musculus with 76 samples.

Results

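Stitched H3K27ac clusters are long stretches of mouse chromosome in which many distal peaks of histone H3 lysine 27 acetylation (H3K27ac) lie close together. In the wild type diencephalon, 67 such clusters were found at E11.5 and 405 at E17.5. They were selected on the deposited H3K27ac peak calls alone, for each stage apart. Peaks of the replicates of a stage were merged where they shared 1 bp, and a merged region was kept if every replicate (2 lists at E11.5, 3 at E17.5) had a peak in it and it lay over 2 kb from every annotated gene start. Kept regions up to 12500 bp apart were joined, and a joined group became a cluster if its regions summed to at least 10 kb. The E11.5 clusters were 67 of 7658 joined groups (0.875%) and the E17.5 clusters 405 of 18129 (2.23%). Because the peak calls chose the members, the number, length and acetylation of clusters are given here as a description without a test.

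The diencephalon is the part of the forebrain that forms the thalamus and habenula, the prethalamus and the hypothalamus. At E11.5 much of it is dividing neuroepithelium, and by E17.5 most thalamic neurons have been born and are maturing while glia form. H3K27ac is laid down by the acetyltransferases p300 and CBP on nucleosomes next to active promoters and enhancers. Dense runs of acetylated enhancers have been described around genes that mark the identity of a cell type, such as transcription factors, and are often called stretch enhancers or super-enhancers. H3K27me3 is the mark of Polycomb repression, H3K4me3 is typical of active promoters and CpG islands, and CTCF binds insulators and the anchors of chromatin loops.

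The study compared homozygous wild type C57BL/6J embryos with embryos of the same strain homozygous for hs754-humanized, an allele in which a human enhancer sequence replaces its mouse counterpart. Diencephalon was taken at E11.5, where each replicate pooled 6 embryos, or at E17.5, where it pooled 3, in each case of a litter. Each genotype had 2 ChIP-seq replicates per histone mark at the earlier stage, 3 at the later stage, where CTCF was also profiled in 3, and 4 RNA replicates at both. Of 76 samples, 52 had a deposited file and 24 input samples had none. According to the study's methods, the antibody lot used for H3K27ac also binds an acetylated lysine of histone H2B, and each H3K27ac precipitation used more chromatin at the later stage.

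The E17.5 peak lists were longer than those of E11.5. The 2 wild type E11.5 lists held 36150 and 32418 H3K27ac peaks covering 30.5 and 26.7 Mb, and the 3 E17.5 lists held 62720, 74802 and 77419 peaks covering 65.5, 77.5 and 79.7 Mb. The number of clusters depends on the length of the lists, and the deposited peak lists do not give read depth. With the same number of peaks from each of the 5 lists, those with the highest -log10 q, 64 clusters formed at E11.5 and 176 at E17.5. How much of the rest reflects sequencing depth, chromatin input or tissue was not tested.

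The clusters held a small part of all distal acetylated regions. At E11.5 they took in 527 of 11201 distal regions (4.70%) and 1.06 Mb, which was 8.45% of distal acetylated sequence. At E17.5 they took in 2961 of 28744 regions (10.3%) and 6.63 Mb, or 15.4% of the sequence. A region inside a cluster was longer than a typical distal region, with a median of 1210 bp against 833 bp for E11.5, and 1682 bp against 1232 bp for E17.5. The median cluster joined 7 regions at either stage and summed to 13835 bp at E11.5 and 13337 bp at E17.5. Its span from the first to the last region had a median of 32046 bp at E11.5 and 38024 bp at E17.5, of which regions filled 42.7% and 38.5% over all clusters.

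The minimum of 10 kb split a continuous range of lengths. At E11.5 the clusters just inside it were nearest to Urm1 (10061 bp) and Gse1 (10164 bp), and the joined groups just outside it were nearest to Prpf18 (9959 bp) and Sox2 (9920 bp). At E17.5 those just inside were nearest to Trp53i11 (10006 bp) and Ube2srt (10007 bp), and those just outside to Smim32 (9998 bp) and Ythdf1 (9984 bp). Between 9 and 10 kb lay 24 groups of E11.5 and 110 of E17.5, against 8 and 68 clusters between 10 and 11 kb. The Sox2 group, which starts at chr3:35137202 and lies 432648 bp from the gene, missed the minimum at E11.5 and passed it at E17.5 with 11080 bp, so it is among the E17.5-only clusters below.

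Most clusters lay inside genes. A protein-coding gene enclosed 45 of the 67 E11.5 clusters (67.2%) and 278 of the 405 E17.5 clusters (68.6%), and 57 and 341 touched a protein-coding gene. These shares are not given for all joined groups, so a place inside genes is not read as a trait of clusters. Each cluster was given the protein-coding gene whose start was nearest, and the median distance was 37260 bp at E11.5 and 39515 bp at E17.5. This start was over 100 kb away for 15 and 100 clusters, and 17 and 121 clusters touched protein-coding genes other than the nearest. The nearest gene is thus a position, and no contact between a cluster and a promoter was measured in these data. The 67 clusters had 61 nearest genes and the 405 clusters 361, since some genes had 2 or 3 clusters. Chromosomes 11 and 8 carried the most E11.5 clusters (11 and 9), and chromosome 2 the most at E17.5 (47), with no count of all joined groups beside them.

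The largest cluster of either stage lay in Msi2, which encodes an RNA-binding protein of neural progenitors. At E11.5 it ran over chr11:88337809-88496747 with 50 regions that summed to 77608 bp, and at E17.5 over chr11:88289835-88605244 with 68 regions and 149340 bp. The wild type E11.5 lists covered 88.4% and 80.1% of the E11.5 regions and the E17.5 lists 69.9%, 75.6% and 75.4%. The Msi2 stretch was therefore densely acetylated at both stages. Its RNA was at 332, 223, 460 and 352 normalized CPM (counts scaled to library size) in the 4 wild type E11.5 samples and at 139, 275, 231 and 249 CPM at E17.5, and these ranges overlapped.

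The next E11.5 clusters by length lay in or near genes of several kinds. Tspan18, a tetraspanin membrane protein, held a cluster of 43476 bp (chr2:93047709-93150727), and Ephb2, an Eph receptor that guides axons, held 28849 bp (chr4:136459723-136540428). Tcf7l2, the transcription factor of Wnt signalling that marks the thalamus and habenula, held 27703 bp at chr19:55825827-55891551. The largest cluster seen at E11.5 and not at E17.5 summed to 27490 bp at chr9:65052277-65099757. It covers part of the immunoglobulin superfamily gene Igdcc3, although the start of Parp16 is nearest, at 2878 bp. The rest of the 12 largest were nearest to Ccdc182 next to Msi2 (22397 bp), the receptor Notch1 (21923 bp), Sox4 (19533 bp), Slc12a8 (18423 bp), the forkhead factor Foxp4 (17614 bp), the kinesin Kif21a (17329 bp) and Srgap3 (16935 bp). Sox4, a factor of newborn neurons, lay 140718 bp from its cluster, which touched no protein-coding gene.

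The large clusters of E17.5 lay on genes of several kinds. A pair of clusters of 60946 and 39650 bp covered Zfp423, a zinc finger factor of neural development. By the position of its start, the larger was assigned to 4933402J07Rik, a gene with 0 CPM in every RNA sample. Tcf7l2 was overlapped by a cluster of 58166 bp and Srgap3, a regulator of the cytoskeleton in neurons, by 45180 bp. A cluster of 54991 bp at chr8:85430095-85522706 was enclosed by Nfix, a nuclear factor I gene of astrocyte and neuron maturation, while the start of Lyl1 lay nearest. Next came Tcf4 (40554 bp) and a cluster that overlaps Rpn2 and Ghrh, with the start of Ghrh nearest (35532 bp). The growth factor gene Ptn (35105 bp) followed, then a cluster inside the potassium channel gene Kcnn3 whose nearest start is that of Adar (34921 bp). The endosomal gene Nsg2 came after these (34769 bp). Tcf4 encodes a bHLH partner of proneural factors, and Ghrh is the hypothalamic hormone that releases growth hormone.

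Replicates of a stage were close to each other at the clusters looked at here. Over the Tcf7l2 regions of E11.5, the E11.5 lists covered 26354 and 25515 bp and the 3 E17.5 lists 25339, 25351 and 25699 bp. The bases of the E11.5 regions were therefore covered to about the same extent at both stages. The E17.5 lists also reached beyond them, with E17.5 regions that summed to 45692 bp in the same span. Of the regions of the E17.5 cluster, the E11.5 lists covered 45.1% and 42.3%. Over the E11.5 regions in Igdcc3, by contrast, the E11.5 lists covered 25360 and 23119 bp and the E17.5 lists 4279, 5123 and 4507 bp. Over the 3 regions of the Ptn cluster of E17.5, the E11.5 lists covered 2166 and 1639 bp and the E17.5 lists 31216, 32830 and 33455 bp. These coverages chose the clusters and are given without a test.

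Clusters of the stages overlapped in part. Of 67 E11.5 clusters, 37 (55.2%) shared at least 1 bp with an E17.5 cluster, and of 405 E17.5 clusters, 33 (8.15%) shared 1 bp with an E11.5 cluster. They are called shared clusters, the other 30 E11.5-only and the other 372 E17.5-only. The same shares over all joined groups are not given here, so overlap or its lack is not read as a trait of clusters. With the same number of peaks per list the shares were 42.2% of the E11.5 and 16.5% of the E17.5 clusters. Shared clusters were longer at E17.5, with a median of 23110 bp against 13106 bp for E17.5-only clusters. A longer cluster has more room to share 1 bp, so the definition of shared can itself favour longer clusters. At E11.5 shared and E11.5-only clusters had like medians of 13835 and 13899 bp, and shared clusters more often lay within a protein-coding gene (30 of 37 against 15 of 30).

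Most stage-only clusters held some acetylated region at the other stage. Of 30 E11.5-only clusters, 29 held a distal region called in all E17.5 lists, with a median sum of 6846 bp over all 30. Of 372 E17.5-only clusters, 298 held a distal region of E11.5, with a median of 2392 bp over all 372. Neither share is given for all joined groups. The E17.5 lists covered medians of 36.0%, 43.8% and 38.4% of the region bases of the 30 E11.5-only clusters. The 372 E17.5-only clusters were less covered by the E11.5 lists, at 14.7% in replicate 1 and lower in replicate 2. E17.5-only clusters thus lay mostly where E11.5 lists had few peaks, while E11.5-only clusters kept part of their acetylated length at E17.5. Of the 30 E11.5-only clusters, 7 reached 10 kb at E17.5 only when regions near gene starts were counted. In the cluster nearest to Cstad, named after its values were seen, E17.5 distal regions summed to 17234 bp against 15956 bp at E11.5, in groups too far apart to be joined. E11.5-only thus means that the rule gave no E17.5 cluster there, and not that acetylation was gone. The E11.5 lists were the shorter ones, which lowers the coverage of E17.5-only clusters.

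The other marks were called in the same tissue and took no part in choosing the clusters. Polycomb marking was called more often at E17.5 in E11.5-only clusters. An H3K27me3 peak of every E11.5 list touched a region of 7 of the 30 E11.5-only clusters, and a peak of every E17.5 list touched 18 of the 30. Among regions, this was 17 of 200 (8.50%) at E11.5 and became 49 of 200 (24.5%). Distal regions of E11.5 outside clusters had H3K27me3 in 5.69% at E11.5 and 11.4% at E17.5, so both kinds of region carried it more often at the later stage. Cluster regions are longer, and per 100 kb of region the counts were 4.51 and 12.1 in E11.5-only clusters against 5.48 and 10.8 outside, which is close. By bases H3K27me3 covered 11.4% and 26.5% of these clusters against 4.89% and 11.2% outside, so the contrast depends on the measure. The E11.5 bases lay mostly in 3 of the 30 clusters, nearest to Nr2f2 (15311 bp), Uncx (11787 bp) and Polg (11069 bp) and named after their values were seen, so at E11.5 the contrast by bases rests on these few members. Of the 327 regions of shared clusters as called at E11.5, 1.83% had it at E11.5 and 14.7% at E17.5. The E17.5 lists of H3K27me3 were longer (27452 to 43700 peaks) than those of E11.5 (13850 and 19166), and their part in the rise was not tested.

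In E17.5-only clusters H3K27me3 was called at E17.5 in 6.45% of regions and 5.69% of bases. Distal regions outside clusters were close, at 7.31% and 6.26%, with no test. Per 100 kb of region the counts were 3.04 in these clusters and 5.32 outside, so the contrast depends on the measure. The mark touched a region of 72 of the 372 clusters. In shared clusters as called at E17.5 it was in 10.3% of regions and 12.8% of bases, at 4.01 per 100 kb. H3K27me3 covered most of the acetylated region bases of a few clusters. The shares below are of these bases and leave out the gaps between regions. At E11.5 it covered 100% of the E11.5-only clusters next to Nr2f2 (chr7:69974354-69990709) and over Uncx (chr5:139520832-139538713). Nr2f2 encodes the nuclear receptor COUP-TFII and Uncx a homeodomain factor, each expressed in parts of the diencephalon. At E17.5 it covered 89.4% of the cluster in Nfix, 89.3% of those nearest to Bcl11b and Foxp1, and 100% of the E17.5-only cluster nearest to Nr4a2. These genes encode transcription factors that are on in some neurons and off in others. Both marks were called on the same bases of pooled tissue, and whether they lay on the same cells was not measured. These clusters were chosen for naming after their coverage was seen.

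H3K4me3 was called in many clusters at E11.5 although all regions lay over 2 kb from gene starts. A region of 25 of 30 E11.5-only clusters and of 32 of 37 shared clusters carried an H3K4me3 peak of both E11.5 lists. At E17.5 it was 14 and 24 of the same clusters. Among regions of E11.5-only clusters it was in 62 of 200 at E11.5 and in 24 of 200 at E17.5, and in distal regions of E11.5 outside clusters 24.5% and 21.4%. Cluster regions are longer, and per 100 kb of region the H3K4me3 counts at E11.5 were 17.3 in E11.5-only clusters and 23.5 outside. By bases the mark covered 23.7% of E11.5-only clusters and 30.1% of shared clusters as called at E11.5, beside 21.9% outside, so the measures differ in direction. Of the regions of E17.5-only clusters, 9.50% had H3K4me3 at E11.5 and 9.54% at E17.5, beside 11.9% and 13.6% of E17.5 distal regions outside clusters. The lists of this mark had about the same length at each stage (25080 and 23864 peaks at E11.5, 23471 to 24877 at E17.5).

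CTCF, profiled at E17.5 only, was frequent along clusters of each set. A CTCF peak of all 3 wild type lists lay in a region of 21 of 30 E11.5-only, 251 of 372 E17.5-only and 26 of 33 shared clusters as called at E17.5. This was 432 of 2620 regions in E17.5-only clusters and 3878 of 25783 E17.5 distal regions outside clusters. Cluster regions are longer, and per 100 kb of region the counts were 8.44 in E17.5-only clusters and 11.1 outside clusters. CTCF peaks were thus no denser in cluster regions than in other distal regions.

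The sequence of cluster regions differed little from that of other distal regions. Median GC content was 51.1% in E11.5-only, 48.9% in E17.5-only and 50.8% in shared clusters as called at E17.5, beside 49.1% and 47.1% in distal regions outside clusters of E11.5 and E17.5. The median observed over expected ratio of CpG lay between 0.214 and 0.229 in clusters and was 0.233 and 0.228 outside them. A stretch of 200 bp with at least 50% GC and a CpG ratio of at least 0.6 occurred in 27.5% of regions of E11.5-only clusters, 26.6% of E17.5-only and 33.7% of shared clusters as called at E17.5. Outside clusters the shares were 22.0% and 21.7%, in regions that were shorter. Measured per base, such stretches took up 8.13%, 5.39% and 6.65% of the clusters and 10.1% and 6.93% outside.

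Short letter patterns known from neural factors were counted in 300 bp around the strongest summit of each region, on both strands. ACAAAG, a SOX pattern, was in 27.5% of windows of E11.5-only, 27.4% of E17.5-only and 27.6% of shared clusters as called at E17.5, beside 33.4% and 29.9% of all windows outside clusters at E11.5 and E17.5. CAGCTG, an E-box bound by bHLH factors, was in 23.5%, 23.6% and 29.6%, beside 22.5% and 21.9%. TAATTA, a homeodomain pattern, was in 14 of 200, 151 of 2620 and 22 of 341 windows, beside 5.93% and 6.69%. TTGGCA, part of the site of nuclear factor I, was in 35 of 200, 426 of 2620 and 54 of 341 windows, beside 14.4% and 16.5%. TGANTCA, the AP-1 pattern, was in 5.50%, 8.32% and 7.33%, beside 7.77% and 8.51%. ACAAAG was thus less frequent in cluster windows and CAGCTG more frequent in those of shared clusters, with no test, and a match is only a run of letters.

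The strongest summits of large clusters show what such sequence looks like. They are shown because these summits carry the strongest acetylation of large clusters in each set. For 3 large E11.5-only clusters, 3 large E17.5-only clusters and 2 large shared clusters, 200 bp around the strongest summit that lay over no exon are printed below from the plus strand of mm39, each inside an intron of the gene named, with CpG dinucleotides in capitals. The fold enrichment of these summits ran from 16.3 in Foxp4 to 29.8 in Ghrh. The E11.5-only windows lie at chr9:65070670-65070869 in Igdcc3, chr16:33404673-33404872 in Slc12a8 and chr17:48208715-48208914 in Foxp4:
E11.5-only window in Igdcc3: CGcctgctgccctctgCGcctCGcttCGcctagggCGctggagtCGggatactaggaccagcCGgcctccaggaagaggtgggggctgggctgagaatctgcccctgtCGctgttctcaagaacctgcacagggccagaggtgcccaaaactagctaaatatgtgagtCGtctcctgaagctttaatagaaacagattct
E11.5-only window in Slc12a8: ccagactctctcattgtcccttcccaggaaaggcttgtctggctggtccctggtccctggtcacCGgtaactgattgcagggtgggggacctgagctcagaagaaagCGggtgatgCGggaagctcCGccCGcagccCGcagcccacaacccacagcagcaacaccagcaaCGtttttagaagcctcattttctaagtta
E11.5-only window in Foxp4: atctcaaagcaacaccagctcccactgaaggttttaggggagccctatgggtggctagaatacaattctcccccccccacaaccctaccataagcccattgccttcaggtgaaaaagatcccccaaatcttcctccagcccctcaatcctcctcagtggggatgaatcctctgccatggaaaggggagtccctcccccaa
The E17.5-only windows lie at chr8:85501701-85501900 in Nfix, chr2:157183775-157183974 in Ghrh and chr6:36786544-36786743 in Ptn:
E17.5-only window in Nfix: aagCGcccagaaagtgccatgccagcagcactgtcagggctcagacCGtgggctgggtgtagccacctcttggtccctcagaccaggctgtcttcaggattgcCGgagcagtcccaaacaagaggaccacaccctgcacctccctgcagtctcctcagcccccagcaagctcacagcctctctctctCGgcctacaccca
E17.5-only window in Ghrh: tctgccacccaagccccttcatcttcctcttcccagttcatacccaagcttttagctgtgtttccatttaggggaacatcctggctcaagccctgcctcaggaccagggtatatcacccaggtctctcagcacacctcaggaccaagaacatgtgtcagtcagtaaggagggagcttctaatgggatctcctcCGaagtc
E17.5-only window in Ptn: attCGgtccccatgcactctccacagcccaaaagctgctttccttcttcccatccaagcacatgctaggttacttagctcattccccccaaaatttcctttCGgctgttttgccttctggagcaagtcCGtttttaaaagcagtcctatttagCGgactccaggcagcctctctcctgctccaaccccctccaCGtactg
The shared windows, as called at E17.5, lie at chr11:88473150-88473349 in Msi2 and chr8:88389597-88389796 in Zfp423:
shared window in Msi2: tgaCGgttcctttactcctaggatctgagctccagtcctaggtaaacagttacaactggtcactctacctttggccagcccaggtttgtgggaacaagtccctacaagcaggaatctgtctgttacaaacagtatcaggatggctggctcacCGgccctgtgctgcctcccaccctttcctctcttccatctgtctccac
shared window in Zfp423: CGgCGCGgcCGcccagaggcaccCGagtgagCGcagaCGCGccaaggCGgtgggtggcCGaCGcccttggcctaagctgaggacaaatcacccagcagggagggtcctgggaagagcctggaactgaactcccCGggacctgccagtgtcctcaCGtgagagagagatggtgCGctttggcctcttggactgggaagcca
CpG dinucleotides numbered 9, 7 and 0 in the E11.5-only windows, 4, 1 and 5 in the E17.5-only windows and 2 and 14 in the shared windows. The Zfp423 window, with 66.5% GC and a CpG ratio of 0.639, met the CpG island rule above. None of the 5 patterns occurred in any of the 8 windows, which says only that these letters are not in these windows.

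RNA took no part in choosing the clusters. The 8 wild type RNA samples held 18124370 to 24272569 counts on genes, and stages were compared by edgeR's quasi-likelihood test on all genes. A sample stood apart: E17.5 wild type replicate 1. Across tested protein-coding genes, which are not independent replicates, its log2 CPM correlated with the other 3 samples of its group at r from 0.9112 to 0.9233, and the lowest r within any other group of RNA samples was 0.9751. It held 2900 summed CPM of 15 genes of maturing neurons, against 3833 to 4813 in the other 3, and 282 CPM of 5 erythroid genes, against 59.7 to 106. Over all genes, 10356 of 18583 were called changed between stages with it and 13994 without it. The counts of genes called lower and higher in the wild type cluster sets below are therefore given with all samples and without that sample. Counts at 2-fold or more, and counts for the regional, cell-class and marker lists, are given with all samples alone. The 8 humanized samples held 16414369 to 23513110 counts.

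Genes nearest to E11.5-only clusters were more often lower at E17.5 than genes at large. Of 30 genes, 28 passed the filter on low counts, and 16 of these (57.1%) fell, beside 25.7% of the 14340 tested protein-coding genes. Only 4 rose (14.3%), beside 32.2% of all. At 2-fold or more, a limit added after the data were seen, 12 fell and 3 rose, beside 14.9% and 26.0% of all. The median log2 fold change was -0.82, against 0.06 over all tested protein-coding genes. Without E17.5 wild type replicate 1, 20 of 28 fell and 4 rose, beside 37.3% and 38.3% of all, with a median of -1.07. In pooled tissue, fewer cells that express a gene and less RNA per cell cannot be told apart.

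Some of the genes that fell furthest are given here with their samples. Ccnjl, a cyclin-like gene, was at 50.6, 54.6, 52.6 and 53.9 CPM at E11.5 and then at 6.10, 5.82, 4.80 and 4.47 CPM. The groups lay far apart and the log2 fold change was -3.32 ± 0.18 (SE, adjusted p = 4.77e-07). Fgfr3, a receptor for fibroblast growth factors, was at 137, 191, 149 and 171 CPM and then at 47.6, 25.9, 24.5 and 30.7 CPM (-2.33 ± 0.24, adjusted p = 2.04e-05). Msi1, the RNA-binding protein of neural stem cells related to Msi2, was at 561, 679, 545 and 608 CPM and then at 229, 97.9, 131 and 119 CPM (-2.05 ± 0.26, adjusted p = 8.27e-05). In each of these 3 genes every E11.5 sample was above every E17.5 sample. Gins2, a subunit of the replicative helicase complex, fell by 3.13, Spsb4 by 2.69, the semaphorin gene Sema5b by 2.59, the RNA decay factor Zfp36l1 by 2.41 and Uncx by 2.19 on the log2 scale. Gins2 lay 149549 bp from its E11.5-only cluster, which is inside Gse1.

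Some E11.5-only clusters lay next to genes that rose. Cep170, a centrosomal protein, was at 133, 81.0, 184 and 120 CPM at E11.5 and then at 241, 608, 535 and 638 CPM. Its E17.5 samples were all higher, with replicate 1 the lowest, and the log2 fold change was 1.97 ± 0.34 (adjusted p = 5.82e-04). Its start lay 178665 bp from the cluster, which is enclosed by Sdccag8. Nnmt rose from a mean of 0.258 ± 0.178 to 1.25 ± 0.353 CPM (SD, n = 4), and its cluster lies in Zbtb16, the gene of the zinc finger factor PLZF. Aftph (log2 fold change 1.05, adjusted p = 0.0231) and Parp11 (0.44, adjusted p = 0.0386) were the other genes that rose. Those calls were lost in several settings, with adjusted p between 0.0534 and 0.0602 for Aftph and between 0.0558 and 0.147 for Parp11.

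Among the 12 largest clusters at E11.5, Foxp4 was the only gene nearest to an E11.5-only cluster with a called change. Foxp4 was at 124, 160, 119 and 147 CPM at E11.5 and then at 124, 52.6, 59.7 and 50.7 CPM, where replicate 1 lay within the E11.5 range (log2 fold change -0.94 ± 0.29, adjusted p = 0.0185). Without E11.5 replicate 2 or any of E17.5 replicates 2 to 4 its adjusted p was 0.0512 to 0.0573. Parp16 was at 7.31 ± 0.504 and 9.66 ± 1.26 CPM (SD, n = 4, adjusted p = 0.0777), and Slc12a8 at 1.12 ± 0.209 and 1.06 ± 0.560 CPM (adjusted p = 0.904). For neither of these was a change called.

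Genes nearest to E17.5-only clusters were more often higher at E17.5. Of 334 genes, 302 passed the filter, and 135 of these (44.7%) rose, beside 32.2% of all tested protein-coding genes. A fall was called in 57 (18.9%), beside 25.7%. At 2-fold or more 109 rose and 31 fell, which was 36.1% and 10.3% of those tested, beside 26.0% and 14.9%. The median log2 fold change was 0.45. Without E17.5 wild type replicate 1, 141 rose (46.7%) and 91 fell (30.1%), beside 38.3% and 37.3% of all, and the median was 0.28 against 0.00. Counted with clusters from the same number of peaks per list, 56 of 121 tested genes rose (46.3%). The share that rose was thus above that of all genes in each of these counts, with no test of the difference.

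The genes of E17.5-only clusters that rose most were of several kinds. Calb2, which encodes the calcium-binding protein calretinin, was at 2.04, 0.631, 0.936 and 0.859 CPM at E11.5 and then at 294, 122, 132 and 140 CPM. The rise was seen in every sample and replicate 1 was the highest of its group (log2 fold change 7.26 ± 0.48, adjusted p = 1.14e-06). Slc6a11, the GABA transporter GAT-3 of astrocytes, was at 1.79, 1.10, 1.82 and 1.84 CPM and then at 296, 143, 131 and 147 CPM (6.77 ± 0.37, adjusted p = 4.77e-07). Pcp4, a calmodulin-binding protein, was at 0.255, 0.368, 0.0520 and 0 CPM and then at 9.13, 9.41, 16.8 and 14.1 CPM (6.21 ± 0.58, adjusted p = 8.88e-06). The Calb2 and Slc6a11 clusters held no distal region of E11.5 at all. The Pcp4 cluster lies 285563 bp from the gene, inside Dscam.

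Several of these clusters lay inside the gene that rose. Gabbr2, a subunit of the GABA-B receptor, was at 6.23, 3.99, 5.04 and 5.11 CPM at E11.5 and then at 192, 211, 160 and 193 CPM, a clear separation with replicate 1 in the range of the others. Its log2 fold change was 5.21 ± 0.22 (adjusted p = 2.87e-07), and its cluster spans chr4:46805439-46870561. Myt1l, a zinc finger factor of neuronal identity, was nearest to 3 E17.5-only clusters, 2 of them inside it, and rose by 4.59 ± 0.40 on the log2 scale (adjusted p = 5.52e-06). The adhesion genes Ntng1 (4.48), overlapped by its cluster, and Ntm (3.96), with 2 clusters inside it, also rose. Trh, which encodes thyrotropin-releasing hormone, rose by 4.19, from 0.552 ± 0.227 to 10.1 ± 5.27 CPM (SD, n = 4), and its cluster lies 214754 bp away in Prickle2.

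Among the largest E17.5-only clusters, Ptn and Nsg2 rose. Ptn was at 207, 149, 187 and 156 CPM at E11.5 and then at 465, 699, 727 and 782 CPM (log2 fold change 1.93 ± 0.21, adjusted p = 2.52e-05), and Nsg2 at 292, 226, 225 and 212 CPM and then at 1635, 828, 928 and 881 CPM (2.16 ± 0.25, adjusted p = 3.92e-05). Replicate 1 was the lowest of the E17.5 samples for Ptn and the highest for Nsg2. Lyl1, nearest to the cluster in Nfix, fell from 2.69 ± 0.825 to 1.19 ± 0.135 CPM (SD, n = 4, adjusted p = 0.00643). Nfix, which encloses that cluster, was at 9.99 ± 5.08 CPM and then at 120 ± 70.5 CPM (SD, n = 4, log2 fold change 3.58, adjusted p = 8.75e-05). The nearest start and the enclosing gene thus changed in opposite directions, and Nfix was named after its values were seen. Tcf4 was at 101, 72.1, 110 and 94.7 CPM and then at 87.0, 176, 123 and 132 CPM, with no call (adjusted p = 0.119). Without E17.5 replicate 1 its log2 fold change was 0.59 (adjusted p = 0.00452). Adar rose by 0.76 ± 0.23 on the log2 scale (adjusted p = 0.0160), and without E11.5 replicate 3 or 4 its adjusted p was 0.0507 or 0.0563. Without E17.5 replicate 1 the rise of Adar was smaller, at 0.48 (adjusted p = 0.00256). Ghrh was below the filter, at 0.119 ± 0.0527 CPM at E11.5 and 0.948 ± 0.417 CPM at E17.5 (SD, n = 4).

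Some genes of E17.5-only clusters fell by a large amount. Gadd45g, a growth arrest and stress response gene, was at 37.0, 40.6, 29.3 and 28.9 CPM at E11.5 and then at 4.96, 2.77, 3.33 and 2.94 CPM. Every E11.5 sample was above every E17.5 sample (log2 fold change -3.28 ± 0.25, adjusted p = 2.24e-06). Crb2, a polarity protein of the neuroepithelium, fell by 2.79 ± 0.35 (adjusted p = 6.71e-05), with replicate 1 the highest at E17.5 at 21.8 CPM against 7.92 to 8.97 in the others. Gins2 and Zfp36l1 were nearest both to E11.5-only and to E17.5-only clusters and so are counted in each set. Nr2f2 was the other gene of both sets. Gins2 and Nr2f2 were also nearest to shared clusters, as were Rapgef5, Rgma, Tcf7l2 and Zdhhc6 of the E17.5-only set. These 6 genes are counted again among the genes of shared clusters below.

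Genes of shared clusters fell more often than they rose. Of 33 genes, 32 passed the filter and 17 changed (53.1%), beside 57.9% of all tested protein-coding genes, so the share that changed was close to that of genes at large. A fall was called in 14 (43.8%), beside 25.7% of all, and a rise in 3 (9.38%), beside 32.2%. By 2-fold or more 12 fell and 3 rose, beside 14.9% and 26.0% of all. The median log2 fold change was -0.50. Without E17.5 wild type replicate 1, 21 fell and 4 rose, beside 37.3% and 38.3% of all, with a median of -0.53. A shared cluster was thus seen beside genes in either direction, and beside genes with no call.

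Notch1 and Ephb2 were among the shared genes that fell. Notch1 was at 200, 247, 181 and 201 CPM at E11.5 and then at 51.7, 29.6, 22.1 and 25.4 CPM, without overlap (log2 fold change -2.69 ± 0.28, adjusted p = 1.88e-05). Acetylation was called over its stretch at both stages all the same, with 97.5%, 98.4% and 99.8% of the E11.5 regions covered in the E17.5 lists. Ephb2 was at 861 ± 66.9 CPM and then at 255 ± 131 CPM (SD, n = 4, log2 fold change -1.75, adjusted p = 6.36e-04). Over its E11.5 regions the E17.5 lists covered 39.8%, 39.8% and 44.9%. Tspan18, next to Msi2 in cluster length, fell from 158 ± 16.1 to 54.2 ± 5.01 CPM (SD, n = 4, adjusted p = 2.08e-05). The largest falls were those of Ccdc182 (-4.11 on the log2 scale, from 3.32 to 0.193 CPM), of Fignl1 (-3.18), an ATPase of DNA repair, of Gins2 (-3.13) and, after Notch1, of the redox protein Nxn (-2.30).

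The 3 shared genes that rose were Retreg1, Zfhx3 and Rapgef5. Zfhx3, a homeodomain and zinc finger factor of maturing neurons, was at 209, 152, 169 and 170 CPM at E11.5 and then at 346, 498, 327 and 353 CPM. Every E17.5 sample was above every E11.5 sample (log2 fold change 1.12 ± 0.19, adjusted p = 5.86e-04). Its cluster lies inside the gene 747734 bp from the start, and H3K27me3 covered 62.5% of its region bases at E17.5. Retreg1, a receptor for the turnover of endoplasmic reticulum, rose by 2.72 ± 0.27 (adjusted p = 1.48e-05), with its cluster inside the neighbour Myo10, and Rapgef5 rose by 1.03 ± 0.29 (adjusted p = 0.0106), with its cluster inside Ptprn2.

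Other genes of large shared clusters showed no called change. Tcf7l2 was at 1324, 899, 1086 and 884 CPM at E11.5 and then at 1357, 1258, 1165 and 1029 CPM, overlapping ranges with a log2 fold change of 0.20 ± 0.18 (adjusted p = 0.385). Its shared cluster summed to 58166 bp at E17.5, against 27703 bp at E11.5, so the longer cluster came with RNA of about the same level. An E17.5-only cluster of 18175 bp also lay inside the gene. Sox4 (adjusted p = 0.293), Kif21a (0.798), Srgap3 (0.0704), Zfp423 (0.885) and Msi2 (0.0700) were not called either. Without E17.5 replicate 1, Msi2 (-0.45, adjusted p = 0.0438), Sox4 (-0.36, adjusted p = 0.0406) and Srgap3 (-0.40, adjusted p = 0.00590) were called lower.

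Levels per length put cluster genes above the typical gene. At E11.5 the median level, in CPM per kb of exon over the wild type samples, was 9.50 for tested genes of E11.5-only clusters and 14.9 for shared clusters, against 3.64 over all tested protein-coding genes. At E17.5 it was 8.65 for E17.5-only clusters and 11.1 for shared clusters, against 3.96 over all. E11.5-only genes stood at 4.20 at E17.5, near the median of all genes at that stage. E17.5-only genes had been at 5.26 at E11.5. The quartiles were wide, from 4.80 to 18.4 for E11.5-only genes at E11.5 and from 2.96 to 16.7 for E17.5-only genes at E17.5, and overlapped those of all genes.

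Some genes of the regional and cell-class lists were nearest to a cluster. Of 123 genes in 9 lists, 4 were nearest to an E11.5 cluster and 12 to an E17.5 cluster, beside 58 and 328 of the 14340 tested protein-coding genes, with no test of the difference. From the thalamus and habenula list of 10 genes these were Tcf7l2 at both stages and Foxp2 and Prox1 at E17.5. Foxp2, a forkhead factor of thalamic neurons, was at 28.4 ± 6.20 CPM at E11.5 and then at 191 ± 62.2 CPM (SD, n = 4, log2 fold change 2.75, adjusted p = 2.10e-05). Prox1, a homeodomain factor of the thalamus, was at 29.9, 21.2, 41.6 and 34.3 CPM and then at 134, 287, 207 and 239 CPM (2.77 ± 0.29, adjusted p = 1.83e-05). Both rose in every sample, least in E17.5 replicate 1. The Foxp2 cluster was an unbroken region of 22188 bp within the gene. Of the whole list 4 genes rose and 3 fell.

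Of 21 progenitor genes, 15 fell and 3 rose between stages, and 4 had a cluster nearest. Notch1 had a shared cluster, Msi1 an E11.5-only cluster, and Sox2 and Id1 E17.5-only clusters. Sox2, the factor of the neural stem cell state, fell from 237, 250, 238 and 238 CPM to 199, 136, 134 and 145 CPM (log2 fold change -0.65 ± 0.17, adjusted p = 0.00885). Id1, an inhibitor of bHLH factors, was at 11.3 ± 1.74 and 8.31 ± 4.30 CPM (SD, n = 4, adjusted p = 0.283). Without E17.5 replicate 1 its log2 fold change was -0.83 (adjusted p = 0.00614). For Sox2 a cluster called at the later stage alone, 433144 bp from the gene, thus had a nearest gene whose RNA was lower there. At E11.5 the group at this place summed to 9920 bp, just under the minimum of 10 kb.

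Most genes in the lists of later cells rose. All 15 genes of maturing neurons rose, with a median log2 fold change of 3.12, and Celf4 and Rbfox3 were nearest to E17.5-only clusters. Celf4, a regulator of RNA in neurons, was at 109, 62.2, 125 and 90.0 CPM and then at 468, 694, 511 and 611 CPM (log2 fold change 2.56 ± 0.25, adjusted p = 1.13e-05), and held 2 clusters. Rbfox3, which encodes the neuronal marker NeuN, rose by 1.67 ± 0.30 (adjusted p = 9.07e-04). Of 15 genes of astrocytes and nuclear factor I, 13 rose and 1 fell, and Id4 (2.41 ± 0.18) and Ntrk2 (2.72 ± 0.20) were nearest to E17.5-only clusters, with adjusted p of 2.21e-06 and 1.94e-06. Of 16 genes of neuronal differentiation 9 fell and 4 rose. Sox4 had a shared cluster there and Sox11, its close relative, a pair of E17.5-only clusters, although its RNA fell by 0.93 ± 0.24 (adjusted p = 0.00727).

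No cluster had a nearest gene in the lists for prethalamus (8 of 11 genes rose, 1 fell), hypothalamus (6 of 12 rose, 1 fell), caudal diencephalon and pretectum (12 of 13 fell) or oligodendrocyte lineage (8 of 10 rose, 1 fell). Counted by clusters that overlap the gene itself, 12 of the 123 genes were touched at E17.5, among them Nfia, Nfix, Rora and Syt1, and 2 at E11.5. The presence of the thalamic, prethalamic and hypothalamic genes fits the tissue label, and markers of the neighbouring forebrain, midbrain and eye summed to 9.66 ± 5.58 CPM at E11.5 and 54.9 ± 15.4 CPM at E17.5 (SD, n = 4), with Tbr1 the highest at E17.5.

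Markers of other cells moved between stages beside these changes. Markers of meninges and mesenchyme summed to 1558, 1900, 1448 and 1696 CPM at E11.5 and to 723, 487, 461 and 432 CPM at E17.5, with 6 of 7 lower and Col3a1 the highest. Erythroid markers summed to 1489, 1857, 890 and 1170 CPM and then to 282, 81.8, 106 and 59.7 CPM, with 2 of 5 lower and Hbb-y the highest at E11.5. Markers of choroid plexus and ependyma summed to 19.1, 12.8, 12.3 and 14.5 CPM and then to 259, 295, 156 and 327 CPM, with 3 of 4 higher and Ttr the highest at E17.5. Pericyte markers rose in 3 of 4 genes, from a summed 83.0 to 223 CPM. Endothelial markers (3 of 8 higher) summed to 332 CPM at E11.5 and to 506 CPM in E17.5 replicate 1, against 292 to 356 CPM in the other E17.5 samples. Microglial markers (1 of 7 higher and 1 lower) summed to 40.8 to 56.2 CPM at E11.5, to 72.6 CPM in E17.5 replicate 1 and to 34.3 to 36.2 CPM in the others. In both lists replicate 1 was the highest E17.5 sample. None of these genes was nearest to a cluster at either stage, none was under 0.1 CPM at both stages, and the part of such cells in the acetylation or RNA of cluster genes was not tested.

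The same stage comparison in humanized embryos shares no sample with the wild type one. It called 5837 genes lower and 5712 higher of 14364 protein-coding genes, 40.6% and 39.8%, and 80.4% in all. Of 27 tested genes of E11.5-only clusters 19 fell (70.4%) and 4 rose, of 300 of E17.5-only clusters 152 rose (50.7%) and 95 fell (31.7%), and of 32 of shared clusters 19 fell and 6 rose. Medians were -1.28, 0.38 and -0.62, against -0.03 over all protein-coding genes tested in both genotypes. Of the 16 genes of E11.5-only clusters that fell in wild type, 15 fell in humanized, and of the 135 of E17.5-only clusters that rose, 130 rose. Over all protein-coding genes tested the counts were 3544 of 3688 and 4321 of 4620. Opposite calls were 0 among cluster genes and 2 among all 14204 protein-coding genes, so they were rare everywhere.

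Humanized and wild type RNA of cluster genes did not differ past the threshold. edgeR called 0% of 13757 protein-coding genes at E11.5 and 0% of the 14358 tested later, with 1058 and 207 of all tested genes at an unadjusted p under 0.05. DESeq2 called Ppp3cc and Serinc5 at E11.5 and ENSMUSG00000120174 at E17.5, and none of them was nearest to a cluster. Without E17.5 wild type replicate 1, edgeR again called 0 at E17.5 (194 at an unadjusted p under 0.05), and DESeq2 called 4 genes, namely Ide, Serinc5, ENSMUSG00000120174 and Btaf1, again none of a cluster. The interaction of stage and genotype was called for 0% of 14814 protein-coding genes (edgeR, 1610 of all tested genes at an unadjusted p under 0.05, and 873 without that sample), and DESeq2 also called 0, with that sample and without it. Over tested genes of E17.5-only clusters the difference between genotypes at E17.5 ran from -0.88 to 0.58 on the log2 scale with a median of -0.17, beside -0.09 over all, and 3 of 303 had an unadjusted p under 0.05, beside 140 of 14064 among all. Over E11.5-only genes at E11.5 it ran from -0.50 to 0.36 with a median of 0.15, and 6 of 27 had an unadjusted p under 0.05, beside 771 of 13629 among all.

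The clusters were largely acetylated in humanized embryos too. Chromosome 13 was left out of this count, because positions in the humanized genome are shifted there downstream of the replaced sequence. At E11.5 the same rule gave 64 clusters in wild type and 67 in humanized, and 54 (84.4%) and 53 (79.1%) of them overlapped. All 64 wild type clusters had at least 50% of their region bases covered in each humanized list. At E17.5 it gave 391 clusters in wild type and 213 in humanized, of which 200 (51.2%) and 207 (97.2%) overlapped. The wild type E17.5 clusters without a humanized one over them were small, with a median of 11559 bp.

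The lower humanized number at E17.5 went with a short list. Humanized replicate 3 had 47132 peaks, against 63947 and 65181 in replicates 1 and 2, and a region had to be called in all 3. Over the 360 E17.5-only clusters off chromosome 13, replicates 1, 2 and 3 covered a median of 74.7%, 75.9% and 52.9% of the region bases. In these lists 355, 357 and 201 clusters had at least 50% of their region bases covered. The wild type lists, which chose the clusters, covered 78.5%, 88.3% and 87.5%. Without replicate 3 the rule gave 279 humanized clusters, and without replicate 1 or 2 it gave 182 or 181. Without wild type replicate 1, 2 or 3 it gave 453, 366 or 348 wild type clusters, chromosome 13 included. The humanized number was thus lower with 2 lists as well, and the part of the short list in this was not tested. Wild type values chose the wild type clusters, so no test between genotypes was made.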

How the data were processed

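Reads were mapped and peaks called by the authors before deposit, with Bowtie2 2.4.2, MACS2 2.2.7.1, deepTools 3.5.1 and STAR 2.7.9a on mm39, per the submitters' processing notes. The RNA values are counts of reads per gene, which the authors made with STAR and deposited without normalization. The fold enrichment of each peak is the ratio of its signal to the local background, as deposited by the authors from MACS2. The peak files also give -log10 p and -log10 q for each peak, as deposited by the authors from MACS2. Peaks were called for each replicate apart, the H3K27me3 lists have the broad form with settings that were not stated, and the 24 input samples of 76 have no file of their own.

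Clusters were built from the 5 wild type H3K27ac lists, and the other samples of the 52 with a file were set beside them, in Python 3.11.15 (numpy 2.4.6, pandas 2.3.3, pysam 0.24.0). RNA counts were normalized by TMM and tested with edgeR 4.0.16 (limma 3.58.1, R 4.3.3) by its quasi-likelihood test, with DESeq2 1.42.0 as the other tool, at a Benjamini-Hochberg adjusted p under 0.05 and after edgeR's filter on low counts. Reads not assigned to a gene, summed over the 4 count lines that name no gene, were 48.1% to 58.4% of a sample. Of 56923 gene IDs in the count files, 56199 (98.7%) matched the annotation used here on the main chromosomes. Members and gene lists were chosen when earlier results of these data were known. Genes named for their own values are those of the 12 largest clusters of a stage, the largest changes of each set in either direction and the list genes nearest to a cluster, chosen after the values were seen. Not every item that this rule picks is reported here. The steps were tested on simulated peaks and counts before use.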

Additional observations from a re-analysis of the deposited data

Results flagged for a closer look

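Samples that stood apart from the other 3 of their group were sought in the normalized CPM of the genes named in the report, with Dixon's ratio in 228 groups of 4. By chance about 1 in 20 groups would be picked out, and 26 were. Of these, 15 were in E17.5 wild type replicate 1, and no value was removed for this reason.

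In E17.5 wild type replicate 1, genes above the other samples were Calb2 (294 against 122 to 140), Crb2 (21.8 against 7.92 to 8.97), Foxp4 (124 against 50.7 to 59.7), Gins2 (4.85 against 1.62 to 2.07) and Nsg2 (1635 against 828 to 928). So were Nxn (45.7 against 18.2 to 20.9), Parp11 (124 against 95.2 to 98.7), Rbfox3 (147 against 59.2 to 65.2), Slc6a11 (296 against 131 to 147) and Sox2 (199 against 134 to 145). Spsb4 (22.4 against 10.1 to 10.8), Trh (17.9 against 7.24 to 7.72), Tspan18 (61.6 against 51.1 to 52.6) and Zfp423 (189 against 87.2 to 102) were also above, and Aftph was below (28.3 against 70.0 to 75.8). Whether dissection, cell make-up or RNA quality set this sample apart was not tested.

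The other values were spread over several samples. Zfhx3 was high in E17.5 wild type replicate 2 (498). In the E11.5 wild type samples, Slc12a8 was high in replicate 1 (1.43), and in replicate 2 Id1 (13.9) and Sox2 (250) were high and Slc6a11 was low (1.10). In the E11.5 humanized samples, Ccdc182 was low in replicate 1 (1.98), and Msi2 (375) and Sox11 (1707) were high in replicate 4. In the E17.5 humanized samples, Calb2 was high in replicate 1 (142), Tcf4 in replicate 2 (218) and Lyl1 in replicate 3 (1.05).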

How the results depend on the processing

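The number of clusters moved with most settings, in the order E11.5, E17.5, E11.5 overlapping and E17.5 overlapping, from 67, 405, 37 and 33. Keeping peaks from a -log10 q of 5 upward gave 46, 265, 26 and 22. Only bases covered by every list gave 40, 172, 19 and 19. Starts of all annotated transcripts gave 43, 261, 23 and 21, and starts of protein-coding genes alone gave 114, 656, 79 and 74. A joining distance of 5 kb gave 39, 184, 18 and 17, and a minimum of 15 kb gave 23, 150, 9 and 9. The same number of peaks per list gave 64, 176, 27 and 29. Leaving out each replicate in turn gave 59 to 78, 348 to 453, 34 to 42 and 30 to 46.

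Leaving out each wild type RNA sample in turn, 9147 to 13994 genes changed between stages, 14 to 20 genes of E11.5-only clusters fell, 122 to 141 of E17.5-only clusters rose and 17 to 25 of shared clusters changed. With clusters from the same number of peaks, 56 genes of E17.5-only clusters rose. A replicate block gave 9466 genes in all, and 16, 122 and 17 for the sets, and 0 genes by genotype at either stage. Same-numbered replicates of the stages deviated together with correlations of 0.00606, -0.504, 0.346 and 0.0549 across genes, which are not independent replicates. Those of the genotypes gave 0.0408 to 0.145 for E11.5 and, for E17.5, 0.511, 0.562, 0.0434 and 0.19.

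With the nearest gene kept only within 100 kb, 14 of 25, 102 of 241 and 14 of 25 tested genes changed as above, and with genes that a cluster overlaps 16 of 25, 140 of 291 and 14 of 28. By genotype, DESeq2 called 2 genes at E11.5 and 1 at E17.5. Chosen after seeing the data were the 2-fold limit, the humanized replicates left out in turn, the DESeq2 interaction and the fits by genotype without E17.5 RNA wild type replicate 1, where DESeq2 called 4. Of 55 named genes with a fit, none reversed. By the rule, a higher minimum length, a fold limit or a limit on gene distance can only lower a count. Why the counts moved with the other settings is not known, and the cause was not tested.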
